A study of Mus musculus with 12 samples.

Results

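The WNT receptor transcripts of W-20 cells were examined in 10 genes: the frizzled genes *Fzd1*, *Fzd2*, *Fzd4*, *Fzd5*, *Fzd7* and *Fzd8*, the co-receptor genes *Lrp5* and *Lrp6*, and the tyrosine kinase-like receptor genes *Ror2* and *Ryk*. They were picked by symbol, and not by a limit on any value, from the 56980 genes of a bulk RNA-Seq count matrix. The choice was made with earlier results of these data known. *Fzd3* and *Ror1*, which also had counts, were placed in a list of other receptors. W-20 (W-20-17) is a murine bone marrow stromal cell (BMSC) line. Unmodified cells (WT) and cells titled Y428F were each exposed for 2 hours to 50 nM parathyroid hormone (PTH) or to its vehicle, PBS, giving 4 groups of 3 libraries. In Y428F, a tyrosine of the Hippo pathway coactivator YAP is replaced by phenylalanine, which cannot be phosphorylated. That line was made by introducing a plasmid with Flag-tagged YAP and selecting positive clones in puromycin. The study's account of its RNA-Seq names the line mostly S381A/Y428F, with a second substitution in YAP, and in places Y428F alone, as the titles do. The genotype field of these libraries reads WT, so their group rests on the titles. No library with introduced wild-type YAP was analysed here, so the Y428F and S381A substitutions, the introduced YAP and the selection of clones cannot be told apart. *Yap1* counts do not show the base change; they ranged from 181 to 194 CPM (counts scaled to the same library size) in WT cells with vehicle, 230.3 to 246 with PTH, 141 to 149.5 in Y428F cells with vehicle and 169 to 174 with PTH.

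The smallest library held 17127897 counts and the largest 19057319 (median 17740980). Of the 10 genes, 9 entered the tests, each with at least 20 counts in every library, whereas *Ror2* had 0 counts in all 12. Nothing in the labels says that the libraries of a group came from separate cultures, so p-values measure the spread between these libraries, which may be technical. In bulk RNA, fewer cells that express a gene and less RNA per cell cannot be told apart.

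Frizzled proteins are receptors with a cysteine-rich outer domain that binds WNT ligands. In the canonical branch, a WNT joins a frizzled to LRP5 or LRP6, the receptor tail recruits Dishevelled and Axin, and β-catenin escapes degradation and acts with TCF/LEF factors. ROR2 and RYK bind WNTs, chiefly WNT5A, in β-catenin-independent branches that steer cell polarity and migration. In bone, LRP5 is known from human conditions of low and high bone mass, and WNT signaling favours the osteoblast over the adipocyte fate of stromal cells.

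On GRCm39 in GENCODE vM39, *Fzd1* (ENSMUSG00000044674.7) lies on chromosome 5 from 4803839 to 4808035 and *Fzd2* (ENSMUSG00000050288.7) on chromosome 11 from 102495222 to 102498884. The exons of both, and of *Fzd8* (ENSMUSG00000036904.7), span the whole gene, so these 3 genes have no intron. *Fzd7* (ENSMUSG00000041075.9, from 59521269 to 59534685) and *Fzd5* (ENSMUSG00000045005.10, from 64769717 to 64776934) share chromosome 1, and *Fzd4* (ENSMUSG00000049791.5) lies on chromosome 7 from 89053563 to 89062342. *Lrp5* (ENSMUSG00000024913.17) occupies 3634821 to 3736643 on chromosome 19, and *Lrp6* (ENSMUSG00000030201.16) 134423439 to 134544212 on chromosome 6. *Ryk* (ENSMUSG00000032547.13) is on chromosome 9 from 102712002 to 102785504, and *Ror2* (ENSMUSG00000021464.16) on chromosome 13 from 53263348 to 53440247. Strand was not stated for the counting, and *Fzd5* and *Fzd7* each overlap a gene on the opposite strand. Those 2 genes, *Gm38058* and *Gm26813*, had 25 and 24 counts over all 12 libraries, against 6452 for *Fzd5* and 7714 for *Fzd7*.

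The 250 bases before the start site are shown for *Fzd7*, which rose with PTH in both lines, and for *Fzd1*, the receptor most raised in Y428F cells. They were read from the GRCm39 genome on the strand of each gene, from chr1:59521019-59521268 (plus strand) and chr5:4808036-4808285 (minus strand). Capitals mark GGGCGG, the core of the Sp1 site, on either strand.
Fzd7: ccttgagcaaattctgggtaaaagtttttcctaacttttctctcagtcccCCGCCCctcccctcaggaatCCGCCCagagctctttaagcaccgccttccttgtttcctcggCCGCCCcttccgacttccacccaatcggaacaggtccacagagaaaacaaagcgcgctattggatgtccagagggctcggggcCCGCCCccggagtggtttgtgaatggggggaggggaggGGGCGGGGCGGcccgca
Fzd1: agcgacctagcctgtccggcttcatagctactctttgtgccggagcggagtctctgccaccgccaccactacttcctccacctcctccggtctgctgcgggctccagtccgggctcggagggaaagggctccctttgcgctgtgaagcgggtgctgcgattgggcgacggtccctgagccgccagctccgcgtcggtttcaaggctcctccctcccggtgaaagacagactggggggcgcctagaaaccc
*Fzd7* held 6 matches, of which the last 2 overlap by 1 base, and *Fzd1* held 0. Among the 10 receptors, 9 held GGGCGG, all but *Fzd1*, as did 36.4% of 21595 promoter windows of the same length of protein-coding genes. The receptor windows were 54.0% to 75.2% G or C, and the windows of all genes were not matched for this. The cAMP response element TGACGTCA, its core TGACG, which lies within it, and the TEAD site GGAATG were found in 0 of the 10 windows, searched on both strands, and in 1.69%, 18.0% and 12.1% of all windows. The AP-1 site TGANTCA was found in 1 receptor window, that of *Ror2* (6.20% of all windows), and the TCF/LEF site CTTTGAT in 1, that of *Lrp6* (2.86%). A match is a run of letters, not a shown binding site.

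The first question was how receptor transcripts responded to PTH. In WT cells *Fzd7* rose and *Fzd2* fell, and both did so in Y428F cells as well. These 2 of the 9 tested receptors were called in WT cells (edgeR's quasi-likelihood test, adjusted p under 0.05 over 17691 genes), 1 in each direction, where 13.4% of all genes were called, 7.42% as higher and 6.01% as lower. In Y428F cells 3 receptors were called, with *Fzd8* falling besides these 2, where 12.4% of all genes were called, 6.61% as higher and 5.78% as lower. Scaled by library totals alone, higher genes were 37.3% of the calls over all genes in WT cells in place of 55.2%, and 38.1% in Y428F cells in place of 53.4%. The median log2 fold change over the 9 receptors was 0.01 in WT cells and -0.06 in Y428F cells, beside -0.02 and -0.01 over all genes. The libraries with and without PTH did not overlap for 3 receptors in WT cells and for 6 in Y428F cells, against 26.4% and 30.8% of all genes.

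**Figure D1:**
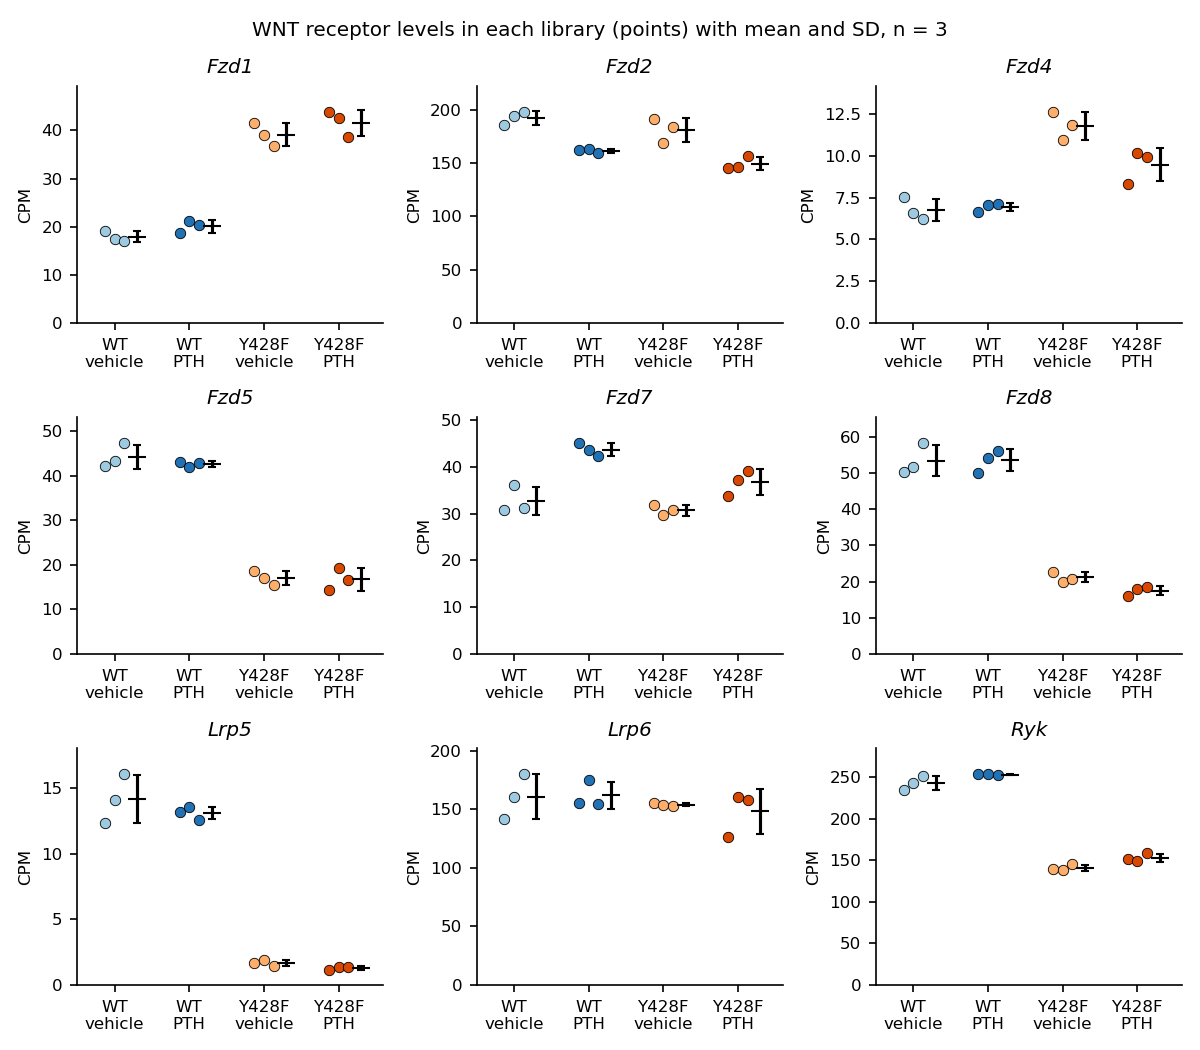
CPM (vertical axes, from 0) of the 9 receptors with counts, in each library (points) of the 4 groups, with the mean and SD of 3 libraries beside them. *Lrp5*, *Fzd5*, *Fzd8* and *Ryk* sit lower and *Fzd1* and *Fzd4* higher in Y428F cells, while *Fzd7* rises and *Fzd2* falls with PTH in both lines.

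*Fzd7*, which encodes a frizzled used in both WNT branches, had 30.9, 36.1 and 31.1 CPM in the 3 WT libraries with vehicle and 45.0, 43.6 and 42.4 CPM with PTH. In Y428F cells it had 31.9, 29.6 and 30.7 CPM with vehicle and 33.8, 37.3 and 39.2 CPM with PTH. Every PTH library lay above every vehicle library of its line, and the highest Y428F library with PTH stayed below the lowest WT library with PTH. The log2 fold change was 0.42 in WT cells (SE 0.077, adjusted p = 0.000826), a 1.34-fold rise, and 0.26 in Y428F cells (SE 0.078, adjusted p = 0.0324). The call in Y428F cells was lost without any of 5 of the 6 Y428F libraries, all but PTH library 1, with log2 fold changes from 0.21 to 0.29, and with scaling by library totals alone (0.22, adjusted p = 0.0717).

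*Fzd2*, the most abundant frizzled transcript here, had 185, 194 and 197 CPM in WT libraries with vehicle and 162, 163 and 159 CPM with PTH. In Y428F cells it had 191, 169 and 183 CPM with vehicle and 145, 146.5 and 156 CPM with PTH. PTH libraries lay below vehicle libraries in both lines with no overlap. *Fzd2* fell by 0.25 on the log2 scale in WT cells (SE 0.056, adjusted p = 0.00425) and by 0.28 in Y428F cells (SE 0.056, adjusted p = 0.00211), and both calls held without each library in turn.

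*Fzd8*, which encodes a canonical WNT receptor, had 50.2, 51.7 and 58.2 CPM in WT libraries with vehicle and 50.1, 54.2 and 56.1 CPM with PTH, so the groups overlapped, with a log2 fold change of 0.00 (SE 0.076, adjusted p = 0.994). In Y428F cells it had 22.7, 20.02 and 20.8 CPM with vehicle and 16.1, 17.9 and 18.6 CPM with PTH, all 3 below the vehicle libraries. There it fell by 0.27 (SE 0.088, adjusted p = 0.0471). That call is a narrow one: it was lost in 9 of the 12 fits without a library (adjusted p from 0.0527 to 0.212), namely without WT vehicle library 2, WT PTH library 1 or 2, or any Y428F library.

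*Fzd4*, which also serves the non-WNT ligand norrin, followed a like pattern without reaching the limit. Its 3 Y428F libraries had 12.6, 10.9 and 11.8 CPM with vehicle and 8.32, 10.2 and 9.91 CPM with PTH, which do not overlap, and the log2 fold change was -0.32 (SE 0.11, adjusted p = 0.0765). It passed at -0.36 (adjusted p = 0.0440) with library totals alone and at -0.32 (adjusted p = 0.0452) when genes needed 10 counts in every library. In WT cells the change was 0.03 (adjusted p = 0.915), from 7.51, 6.60 and 6.22 to 6.66, 7.07 and 7.10 CPM.

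The other 5 tested receptors did not pass with PTH in either line. *Ryk* did not overlap between treatments: its 3 WT libraries with PTH (252 to 253 CPM) lay just above those with vehicle (234 to 251), and its Y428F libraries with PTH (149 to 158) above those with vehicle (138 to 145), with log2 fold changes of 0.06 (adjusted p = 0.533) and 0.12 (adjusted p = 0.153). *Fzd1* changed by 0.16 in WT cells (95% interval -0.02 to 0.34) and 0.09 in Y428F cells (-0.07 to 0.25). The values were -0.05 (-0.24 to 0.13) and -0.02 (-0.23 to 0.19) for *Fzd5*, and 0.01 (-0.17 to 0.19) and -0.06 (-0.24 to 0.12) for *Lrp6*. *Lrp5* had -0.12 (-0.36 to 0.13) and, on 20 to 38 counts per Y428F library, -0.38 (-0.81 to 0.06, adjusted p = 0.303). Its Y428F libraries with PTH (1.11 to 1.40 CPM) lay below those with vehicle (1.47 to 1.92 CPM) without overlap, and those of WT cells overlapped.

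Whether PTH acted differently in the 2 lines was tested as the difference of both responses. No receptor was called (0 of 9, where 0.413% of all genes were called, and 0.137% to 0.509% without each library in turn), and 1 passed at an unadjusted p under 0.05, where 7.05% of all genes did. That 1 was *Fzd8*, at -0.27 (95% interval -0.52 to -0.03, adjusted p = 0.631), and DESeq2 called 0 receptors as well. *Fzd4* had -0.35 (-0.70 to 0.00), *Lrp5* -0.26 (-0.76 to 0.24) and *Fzd7* -0.16 (-0.39 to 0.07), and the other 5 lay between -0.07 and 0.06. The call of *Fzd8* in Y428F cells and not in WT cells is therefore not shown to be a difference between the lines.

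**Figure D2:**
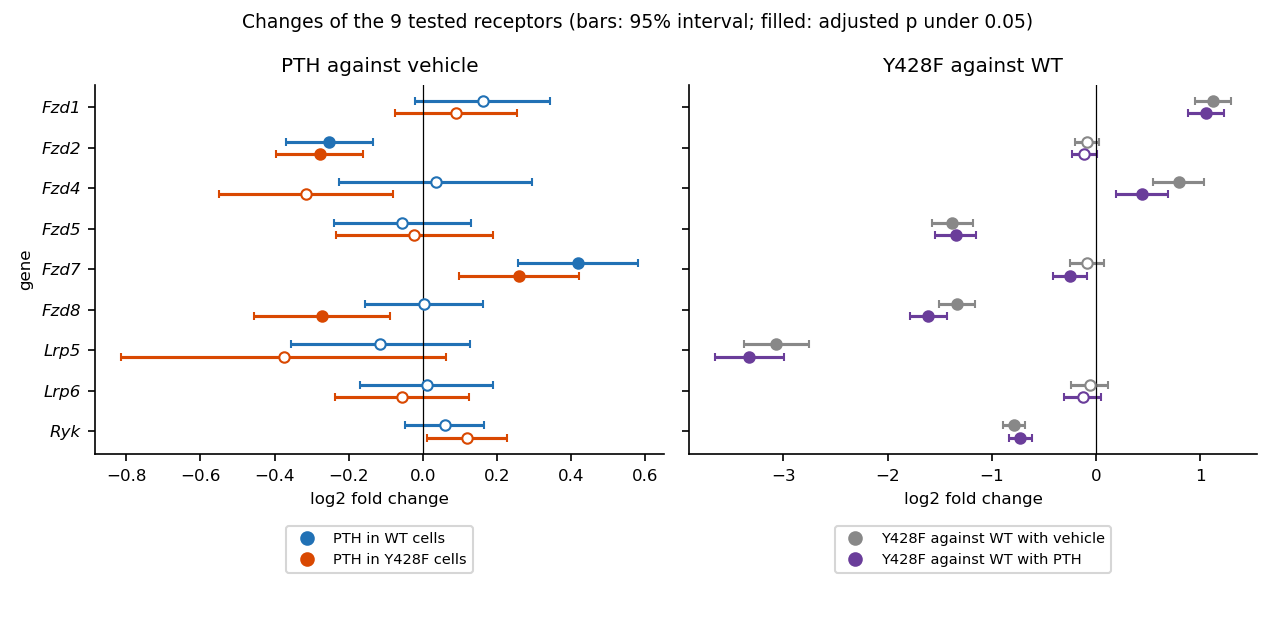
Log2 fold change of each tested receptor (vertical axis) with its 95% interval, for PTH against vehicle (left) and Y428F against WT (right); filled points passed an adjusted p of 0.05. On the left, all points lie within 0.42 of 0, and on the right *Lrp5* lies at -3.07 and -3.33 and *Fzd1* at 1.12 and 1.05.

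More receptors, and more of all genes, were called between the lines than with PTH. With vehicle, 6 of the 9 tested receptors were called, where 45.1% of all genes were called, 22.4% as higher and 22.7% as lower. *Fzd1* and *Fzd4* were higher in Y428F cells, and *Lrp5*, *Fzd5*, *Fzd8* and *Ryk* were lower. With PTH the count was 7, these 6 and *Fzd7*, which was lower, where 45.7% of all genes were called, 22.8% as higher and 23% as lower. The 2 comparisons of lines use different libraries. The libraries of the lines did not overlap for 6 receptors with vehicle and 8 with PTH, against 53.8% and 51.9% of all genes. The median log2 difference over the 9 was -0.09 with vehicle and -0.25 with PTH, beside 0.01 and 0.02 over all genes.

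*Fzd1*, whose product can signal through β-catenin, had 19.2, 17.5 and 17.1 CPM in WT libraries with vehicle and 41.6, 39.0 and 36.7 CPM in those of Y428F cells. With PTH it had 18.6, 21.2 and 20.3 CPM in WT cells and 43.8, 42.5 and 38.6 CPM in Y428F cells. All 6 Y428F libraries were above all 6 WT libraries. It was 2.18-fold higher with vehicle (log2 difference 1.12, SE 0.083, adjusted p = 6.21e-10) and 2.08-fold higher with PTH (1.05, SE 0.083, adjusted p = 1.50e-09).

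*Fzd4*, with the values given above, was 1.74-fold higher in Y428F cells with vehicle (log2 difference 0.80, SE 0.12, adjusted p = 8.94e-06). With PTH the difference was 1.36-fold (0.45, SE 0.12, adjusted p = 0.00437). The lowest Y428F library, at 8.32 CPM, was still above the highest WT library, at 7.51 CPM.

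*Fzd5*, which encodes a frizzled of the same subfamily as FZD8, went the other way. It had 42.3, 43.2 and 47.3 CPM in WT libraries with vehicle and 18.5, 17.1 and 15.4 CPM in those of Y428F cells, and with PTH 43.1, 41.9 and 42.8 CPM in WT cells and 14.3, 19.3 and 16.7 CPM in Y428F cells. No WT library was below 41 CPM and no Y428F library above 20 CPM. The log2 differences were -1.38 (SE 0.095, adjusted p = 2.01e-10) and -1.35 (SE 0.096, adjusted p = 3.37e-10), which are 2.60-fold and 2.54-fold lower levels.

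*Fzd8* was also lower in Y428F cells, at 21.2 ± 1.39 CPM against 53.4 ± 4.22 CPM with vehicle (SD, n = 3), a log2 difference of -1.33 (SE 0.081, adjusted p = 3.03e-11). With PTH it was 17.5 ± 1.25 CPM against 53.5 ± 3.06 CPM, a log2 difference of -1.61 (SE 0.084, adjusted p = 2.32e-12). These are 2.52-fold and 3.05-fold lower levels.

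*Fzd7* and *Fzd2* did not pass between the lines with vehicle, at -0.09 (95% interval -0.25 to 0.07) and -0.09 (-0.20 to 0.03). With PTH *Fzd7* was lower in Y428F cells by 0.25 (SE 0.077, adjusted p = 0.0111), a call lost with library totals alone (-0.18, adjusted p = 0.0584), without WT PTH library 1 (adjusted p = 0.0529) and without Y428F PTH library 1 (adjusted p = 0.0504). *Fzd2* had -0.11 (-0.23 to 0.01) with PTH, although its 3 Y428F libraries lay below those of WT cells.

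The co-receptors diverged from each other. *Lrp5* had 12.4, 14.1 and 16.0 CPM in WT libraries with vehicle and 1.64, 1.92 and 1.47 CPM in Y428F libraries. With PTH it had 13.1, 13.5 and 12.6 CPM in WT cells and 1.11, 1.40 and 1.38 CPM in Y428F cells. In counts, WT libraries held 216 to 299 and Y428F libraries 20 to 38. The transcript was 8.38-fold lower with vehicle (log2 difference -3.07, SE 0.15, adjusted p = 9.00e-13) and 10.0-fold lower with PTH (-3.33, SE 0.16, adjusted p = 6.71e-13), the largest differences among the 9 receptors.

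*Lrp6*, the other canonical co-receptor, had 142, 161 and 180 CPM in WT libraries with vehicle and 155, 154 and 153 CPM in Y428F libraries. With PTH it had 156, 175 and 155 CPM in WT cells and 126, 161 and 158 CPM in Y428F cells. The groups overlapped throughout, and the log2 differences were -0.06 (95% interval -0.24 to 0.12) with vehicle and -0.13 (-0.31 to 0.05) with PTH. Per kilobase of merged exon, *Lrp5* made up 14.1% ± 0.128 of the summed LRP5/6 level in WT cells with vehicle and 1.99% ± 0.261 in Y428F cells (SD, n = 3), and 13.1% ± 0.503 and 1.60% ± 0.00859 with PTH.

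Of the tyrosine kinase-like receptors, *Ryk* was lower in Y428F cells. It had 234, 243 and 251 CPM in WT libraries with vehicle and 139, 138 and 145 CPM in Y428F libraries, and with PTH 253, 253 and 252 CPM in WT cells and 152, 149 and 158 CPM in Y428F cells. The lowest WT library was well above the highest Y428F library. Its log2 difference was -0.79 with vehicle (SE 0.052, adjusted p = 9.41e-11), 1.72-fold lower, and -0.72 with PTH (SE 0.052, adjusted p = 3.18e-10). *Ror2* had 0 counts in all 12 libraries, and a count of 0 allows up to 3 counts, or 0.152 to 0.185 CPM per library, for counting error only.

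Levels of different genes were compared as CPM per kilobase of merged exon length. In WT cells with vehicle the order of mean levels ran from *Fzd2* (52.5 CPM per kb) through *Ryk* (37.9), *Lrp6* (14.4), *Fzd8* (8.93), *Fzd5* (6.38), *Fzd7* (5.57), *Fzd1* (4.27) and *Lrp5* (2.36) to *Fzd4* (1.01). Of these neighbours, *Fzd5* and *Fzd7* overlapped in their library ranges and the others did not. With PTH, *Fzd7* (7.44) stood above *Fzd5* (6.14) with no overlap, and the rest of the order was as before. In Y428F cells with vehicle *Fzd2* (49.5 CPM per kb), *Ryk* (22.0) and *Lrp6* (13.8) led again, followed by *Fzd1* (9.32), *Fzd7* (5.24), *Fzd8* (3.55), *Fzd5* (2.45), *Fzd4* (1.75) and *Lrp5* (0.280). *Fzd1* thus moved from the seventh to the fourth place and *Lrp5* to the last. With PTH this order was kept, with *Fzd8* (2.94) and *Fzd5* (2.42) overlapping. When the longest transcript was used as the length, *Ryk* stood ahead of *Fzd2* and *Fzd7* ahead of *Fzd5* in WT cells with vehicle, and 5 of 9 places were the same in each WT group and 9 of 9 in each Y428F group.

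**Figure D3:**
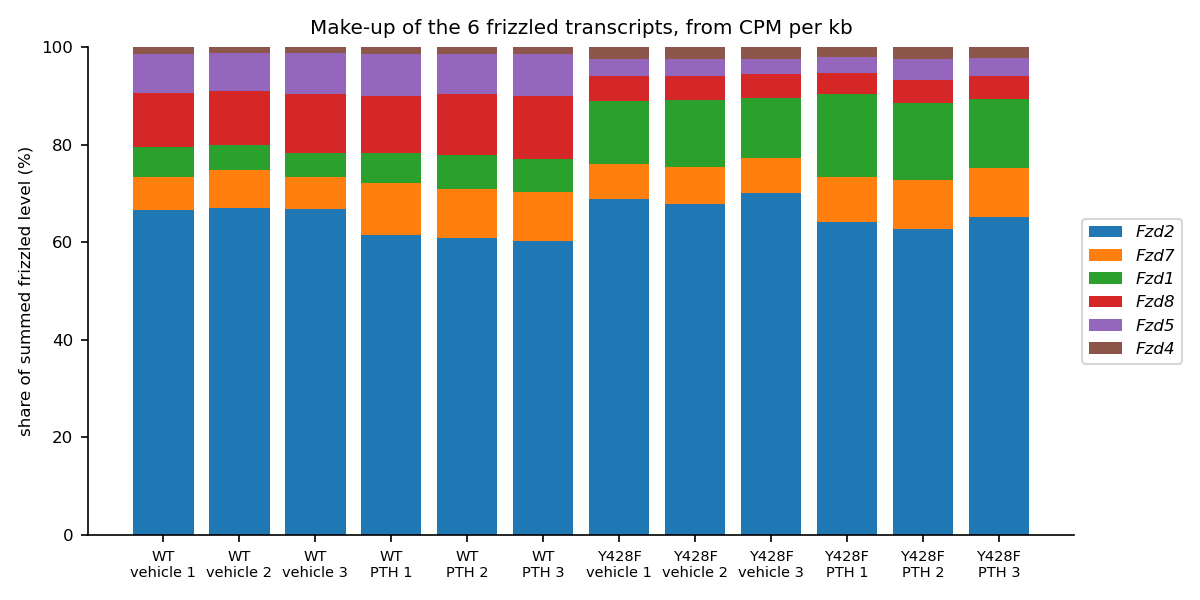
Share (%, vertical axis) of each of the 6 frizzled genes in their summed CPM per kb, in each of the 12 libraries (bars). *Fzd2* fills over 60% of every bar, and *Fzd1* takes a larger share and *Fzd8* and *Fzd5* smaller ones in the 6 Y428F libraries.

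As shares of the summed level of the 6 frizzleds, *Fzd2* held 66.7% ± 0.226 in WT cells with vehicle and 60.9% ± 0.583 with PTH, and 68.9% ± 1.05 and 64.0% ± 1.21 in Y428F cells (SD, n = 3). *Fzd1* held 5.44% ± 0.513 and 6.60% ± 0.379 in WT cells and 12.99% ± 0.723 and 15.6% ± 1.44 in Y428F cells. *Fzd8* held 11.3% ± 0.621 and 12.4% ± 0.664 in WT cells and 4.94% ± 0.0719 and 4.60% ± 0.206 in Y428F cells. *Fzd7* went from 7.08% ± 0.608 to 10.3% ± 0.355 with PTH in WT cells and from 7.30% ± 0.141 to 9.82% ± 0.452 in Y428F cells. The summed frizzled level was 78.7 ± 2.41 CPM per kb in WT cells with vehicle, 72.4 ± 0.669 with PTH, 71.8 ± 4.02 in Y428F cells with vehicle and 63.7 ± 1.81 with PTH. The sum thus differed less between the groups, in proportion, than the shares of *Fzd1*, *Fzd8* and *Fzd5* did between the lines.

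The difference between lines was set beside the other genes of each chromosome, for genes of at least 4 mean CPM. The chromosome medians with vehicle ranged from -0.24 on chromosome 9 to 0.18 on chromosome 11 for those that carry a receptor. *Lrp5*, at -3.07, stood below a median of 0.12 over 371 genes of chromosome 19 and of 0.18 over its 20 nearest such genes, which ranged from -0.36 to 1.90. *Fzd5*, at -1.38, stood below its neighbours' median of 0.11 (range -11.27 to 0.77), whereas *Fzd7* on the same chromosome had -0.09 beside a neighbour median of 0.18. *Fzd8* (-1.33) lay on chromosome 18, whose median was -0.21, and *Ryk* (-0.79) on one with -0.24, where 23.1% of 572 genes were higher in Y428F cells. *Fzd1* (1.12) and *Fzd4* (0.80) stood above neighbour medians of -0.10 (range -0.88 to 2.25) and 0.17 (-6.50 to 2.40). Around *Fzd1*, *Fzd4*, *Fzd5* and *Ryk* (neighbours from -0.81 to 0.45) at least 1 neighbour thus differed further in the same direction, and around *Lrp5* and *Fzd8* (from -1.18 to 1.31) none did. The neighbour medians were thus between -0.19 and 0.18 around all 9 tested receptors.

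**Figure D4:**
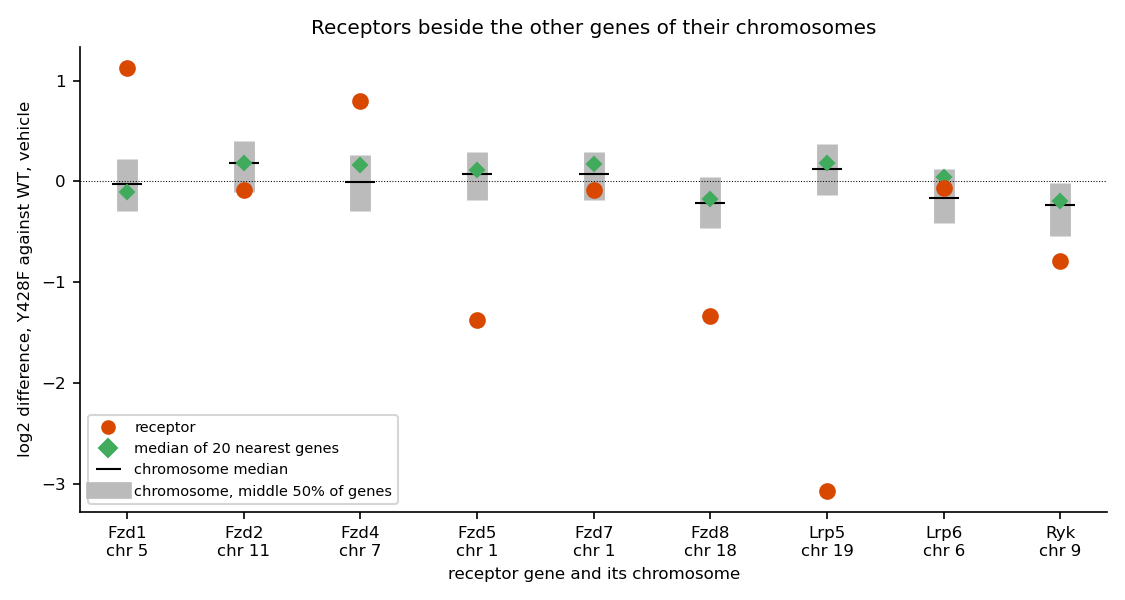
Log2 difference between Y428F and WT cells with vehicle (vertical axis) for the 9 tested receptors (circles), with the median of the 20 nearest genes (diamonds), and the median (line) and middle 50% (grey) of the genes of at least 4 CPM on the same chromosome. *Lrp5*, *Fzd5*, *Fzd8* and *Ryk* lie below the grey bars and *Fzd1* and *Fzd4* above them.

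For the 2 receptors that differed most between the lines with vehicle, the genes with the most similar course over the 12 libraries were sought among 11218 genes of at least 2 CPM, by the root mean square difference of log2 CPM centred on each gene's mean. For *Lrp5* these were *Antxr1*, an anthrax toxin receptor (0.133), *Pou6f1*, a homeodomain transcription factor (0.165), and *Parp9* (0.176). *Antxr1* had 418 and 376 mean CPM in WT cells with vehicle and PTH, and 55.6 and 46.9 in Y428F cells. For *Fzd5* they were *Pcdhga9*, a protocadherin of a cluster of similar genes (0.0959), *Pbxip1* (0.102) and *Napsa* (0.103). *Pbxip1* had 206 and 203 mean CPM in WT cells and 85.0 and 74.8 in Y428F cells. These are resemblances over 4 groups of libraries that share their lines and treatments.

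The rest of the WNT pathway was counted in lists written by function. Each count stands beside the calls over all genes. These were 13.4% with PTH in WT and 12.4% in Y428F cells, and 45.1% and 45.7% between the lines with vehicle and PTH. Of 9 other receptors and co-receptors 5 were tested, and *Fzd6*, *Fzd9*, *Fzd10* and *Musk* had fewer than 10 counts in all. With PTH in WT cells edgeR called 0 of the 5, with 1 at an unadjusted p under 0.05, and DESeq2 called 1. In Y428F cells PTH lowered *Ptk7*, a pseudokinase co-receptor, by 0.27 (SE 0.067, adjusted p = 0.0104). Between the lines 3 were lower in Y428F cells and 0 higher with each treatment: *Reck*, an anchor of WNT7 signaling (-1.13 with vehicle and -1.17 with PTH), *Ptk7* (-0.91 and -1.003) and *Adgra2*, the partner of RECK (-0.59 and -0.67). Their CPM with vehicle were 46.2 to 53.7 in WT and 22.5 to 24.2 in Y428F libraries for *Reck*, 508 to 626 and 295 to 323 for *Ptk7*, and 248 to 290 and 180.3 to 188 for *Adgra2*, with no overlap.

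Of 16 genes of receptor turnover and maturation 10 were tested. With PTH 2 rose in WT cells and 1 in Y428F cells, and 0 fell, where 13.4% and 12.4% of all genes were called. *Lgr4*, a receptor for R-spondins, which spare frizzleds from degradation, rose by 0.37 in WT cells (SE 0.072, adjusted p = 0.00125), from 23.3 to 24.2 CPM with vehicle to 29.8 to 32.1 CPM with PTH. The other was *Rspo2*, an R-spondin (0.76 in WT and 0.34 in Y428F cells). Between the lines with vehicle 2 were higher and 2 lower, 40.0% of those tested, beside 45.1% of all genes. *Rspo2* was lower in Y428F cells (log2 fold change -1.47, SE 0.078, adjusted p = 3.42e-12). *Mesd*, the chaperone that LRP5 and LRP6 need to leave the endoplasmic reticulum, was lower in Y428F cells by 0.80 (SE 0.059, adjusted p = 5.58e-10), with 304 to 319 CPM in WT and 173 to 183 CPM in Y428F libraries. *Znrf3*, a ligase that removes frizzleds, was higher by 0.55 (adjusted p = 0.00174), and *Lgr4* by 0.35 (adjusted p = 0.000363). With PTH, *Mesd* (-0.71) and *Rspo2* (-1.89) were lower and *Znrf3* (0.58) higher, 30.0% of those tested, beside 45.7% of all genes.

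Of 21 ligand and secretion genes 11 were tested, and with PTH edgeR called 1 in each line, with 3 at an unadjusted p under 0.05, and DESeq2 called 1 higher and 1 lower in each. The edgeR calls were 9.09% of those tested in each line, beside 13.4% and 12.4% of all genes. The gene edgeR called was *Wnt10b*, a ligand that favours bone formation, which fell by 0.30 in WT cells (SE 0.080, adjusted p = 0.0139) and by 0.33 in Y428F cells (SE 0.079, adjusted p = 0.00750). WT libraries went from 44.3 to 48.2 CPM to 36.6 to 38.1 CPM, and Y428F libraries from 47.0 to 50.1 CPM to 34.3 to 44.3 CPM. Between the lines with vehicle 4 were higher and 2 lower, and with PTH 3 and 2. These were 54.5% and 45.5% of those tested, beside 45.1% and 45.7% of all genes. *Wls*, the carrier that brings WNTs to the cell surface, was lower in Y428F cells by 0.59 with vehicle (SE 0.054, adjusted p = 1.43e-08) and by 0.61 with PTH. *Wnt5a* was lower by 0.62 and 0.65, and *Wnt4* was higher by 0.98 and 1.65 at 1.24 to 5.88 CPM. The other higher genes were under the 2 mean CPM needed for naming. The median log2 difference over the 11 tested was 0.98 with vehicle and 0.04 with PTH. Of 13 secreted antagonists 6 were tested, and edgeR and DESeq2 called 0 with PTH in either line, with 0 in WT and 1 in Y428F cells at an unadjusted p under 0.05. Between the lines 2 were lower in Y428F cells with vehicle and 3 with PTH, led by *Sfrp2* (-3.65 and -3.60). These were 33.3% and 50.0% of the antagonists tested, beside 45.1% and 45.7% of all genes.

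All 15 genes of cytoplasmic transduction were tested. With PTH 3 rose in WT cells, the β-catenin destruction complex genes *Apc* (0.34, adjusted p = 0.00458) and *Axin1* (0.22, adjusted p = 0.00942) and the kinase gene *Csnk1g1* (0.30, adjusted p = 0.00851). In Y428F cells *Csnk1g1* (0.36) and *Axin1* (0.23) rose, and *Amer1*, an APC-binding membrane protein gene (-0.37, adjusted p = 0.00178), and *Dvl1*, a Dishevelled gene (-0.26, adjusted p = 0.00538), fell. Between the lines 2 were higher and 7 lower with each treatment (4 and 4 with vehicle when scaled by library totals alone), among them *Csnk1a1* (-0.33 with vehicle and -0.34 with PTH), *Dvl1* (-0.27 and -0.35) and, with vehicle, *Dvl2* (-0.31) and *Csnk1e* (0.28), and with PTH *Amer1* (-0.43) and the tankyrase gene *Tnks* (-0.29).

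Of 12 TCF/LEF factors and feedback targets 8 were tested, with *Axin2*, *Nkd1*, *Nkd2* and *Sp5* at fewer than 10 counts in all. *Myc* rose (0.64 in WT and 0.25 in Y428F cells) and *Ccnd1*, the cyclin D1 gene, fell (-0.21 and -0.22) with PTH, though *Myc* missed the limit in Y428F cells with library totals alone (0.21, adjusted p = 0.0644). With vehicle 3 were higher and 3 lower in Y428F cells: *Lef1* had 21.8 to 24.8 CPM in WT and 1.84 to 2.35 CPM in Y428F libraries (-3.44, SE 0.13, adjusted p = 1.77e-14), *Tcf7l1* had -1.73 (SE 0.087, adjusted p = 1.49e-12), *Ccnd1* 0.93 (SE 0.061, adjusted p = 9.45e-11) and *Myc* 0.55. With PTH 2 were higher and 3 lower, with *Lef1* at -2.95, *Tcf7l1* at -1.78 and *Ccnd1* at 0.92.

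Of 15 planar cell polarity and non-canonical effector genes 14 were tested. PTH gave calls for 42.9% of the 14 in WT and 35.7% in Y428F cells, beside 13.4% and 12.4% of all genes. Between the lines 64.3% were called with each treatment, beside 45.1% and 45.7% of all genes. With PTH 5 rose and 1 fell in WT cells, and 4 rose and 1 fell in Y428F cells. The actin-regulating kinase genes *Rock2* (0.68 in WT and 0.33 in Y428F cells) and *Rock1* (0.49 and 0.45) and the polarity gene *Prickle1* (0.43 and 0.45) rose in both lines, while *Daam2* fell in Y428F cells (-0.29, adjusted p = 0.0257). *Daam1*, a formin that binds Dishevelled, rose from 19.7 to 20.5 CPM to 38.2 to 44.2 CPM in WT cells (1.05, SE 0.087, adjusted p = 4.09e-08), and had 22.8 to 26.2 CPM with vehicle and 24.3 to 28.8 CPM with PTH in Y428F cells. It was the 1 gene of the 7 other WNT lists whose response differed between the lines by edgeR (-0.94, SE 0.12, adjusted p = 0.000515), whereas DESeq2 called 2 genes of this list and 1 of receptor turnover. Between the lines with vehicle 4 were higher and 5 lower, among them *Prickle2* (-1.92), *Daam2* (-1.04), *Prickle1* (-0.76) and *Vangl2* (-0.74), and with PTH 3 were higher and 6 lower, with *Prickle2* at -1.87, *Daam2* at -1.13, *Prickle1* at -0.74 and *Vangl2* at -0.67.

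**Figure D5:**
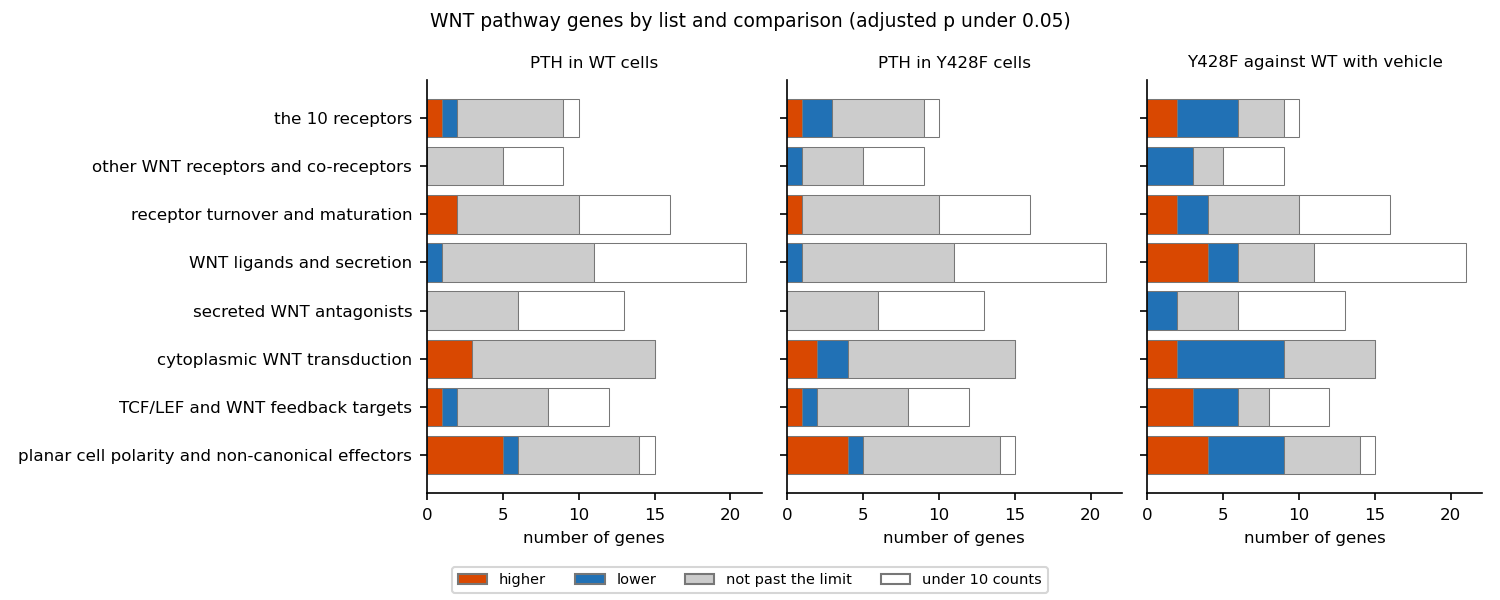
Number of genes (horizontal axes) in each WNT list that were higher, lower, not past an adjusted p of 0.05, or under 10 counts, for PTH in WT cells, PTH in Y428F cells, and Y428F against WT with vehicle. In the third panel 6 of the 9 tested receptors are called, against 2 and 3 in the first and second, beside 45.1%, 13.4% and 12.4% of all genes.

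Of 10 genes known to respond to PTH or cAMP, all tested, 5 rose and 1 fell in WT cells and 6 rose and 1 fell in Y428F cells. Over all genes 13.4% and 12.4% were called. DESeq2 called 5 higher and 1 lower in Y428F cells. *Ptgs2*, the cyclooxygenase gene, rose by 0.98 in WT and 1.30 in Y428F cells.

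Cell type markers were counted beside all genes, of which 45.1% were called between the lines with vehicle and 45.7% with PTH. Of 10 stromal and osteoblast-lineage markers 9 were tested. In Y428F cells 1 was higher and 6 were lower with vehicle, and 1 and 5 with PTH. In response to PTH 0 rose and 2 fell in each line, where 13.4% of all genes were called in WT and 12.4% in Y428F cells. The median log2 fold change with PTH was -0.27 in WT and -0.18 in Y428F cells. Their summed level was 19398 to 22934 CPM in WT cells with vehicle, 19109 to 22069.6 with PTH, and 13506 to 14541 and 10030.0 to 12738 CPM in Y428F cells, with *Col1a2* the most abundant and *Thy1* at 0 counts in all libraries. The 6 adipocyte markers summed to 55.5 to 64.3 CPM with vehicle and 67.5 to 75.1 with PTH in WT cells, and to 45.4 to 48.0 and 70.3 to 75.6 CPM in Y428F cells, with *Pparg* the most abundant and *Adipoq* at 0. PTH libraries were above vehicle libraries in both lines, and the lines overlapped with PTH. Of the 6 markers 4 were tested and 2 had at least 2 CPM. Between the lines 1 was higher and 1 lower in Y428F cells with each treatment. The median log2 difference with vehicle was 0.26, although the sum was lower in Y428F cells. With PTH 1 rose and 0 fell in each line. The median log2 fold change was 0.21 in WT cells and -0.14 in Y428F cells, where the sum rose. The 8 haematopoietic markers summed to 1.05 to 2.33 CPM in WT and 20.1 to 22.2 CPM in Y428F libraries. *Ly6g* was the most abundant and *Cd3e* among those at 0, and only 1 of the 8 had at least 2 CPM. Of 5 tested, 2 were higher and 0 lower in Y428F cells with each treatment. The 5 endothelial markers, led by *Cdh5*, summed to 0.910 to 1.77 CPM in WT libraries. In Y428F cells they summed to 7.94 to 9.94 CPM with vehicle and 6.12 to 6.77 CPM with PTH. Of these 4 were tested, and 1 was higher and 0 lower in Y428F cells with each treatment. The 5 epithelial markers summed to 0.246 to 0.967 CPM in WT and 2.89 to 4.79 CPM in Y428F libraries, led by *Krt8*. *Epcam* and *Krt5* were at 0. Of 2 tested epithelial markers, 2 were higher in Y428F cells with vehicle and 1 with PTH. The PTH responses of the haematopoietic, endothelial and epithelial markers gave 0 calls in either line. The stromal, haematopoietic, endothelial and epithelial sums moved with the line, as did the adipocyte sum with vehicle, where the lines did not overlap, and the adipocyte sum in both lines and the stromal and endothelial sums in Y428F cells moved with PTH. A sum is weighted to its most abundant genes, so it does not show that the whole list moved. The part of these markers in the receptor differences was not tested.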

How the data were processed

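The authors mapped reads of poly(A)-selected RNA with STAR 2.7.10b to GRCm39 and deposited RSEM expected counts per gene, not scaled for library size or gene length; 744 of 56980 gene identifiers did not match GENCODE vM39, from which positions and lengths were taken, and 31817 genes had 0 counts in all libraries. Counts were rounded and fitted with edgeR 4.0.16 in R 4.3.3 (TMM, total of at least 10 counts, 4 groups of 3, 12 libraries in 1 quasi-likelihood fit, Benjamini-Hochberg over 17691 genes). A gene was called at an adjusted p under 0.05, for PTH in each line, Y428F against WT with each treatment, and the difference in response. CPM used TMM library sizes. Intervals are 95%. Replicates differed by more than counting noise (chi-square per degree of freedom 2.94 to 15.2 over 12 pairs). Groups came from titles.

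The receptors and lists, written from general knowledge, were chosen with earlier results of these data known. All 10 receptors were named, and up to 4 called genes per other WNT list and comparison, of at least 2 mean CPM, with the largest log2 fold change; the 3 most similar genes were sought for 2 receptors. *Ptgs2*, *Antxr1* and *Pbxip1* were picked for their values in the text after these were seen. Alternatives were DESeq2 1.42.0, other scalings, filters, limits and fits, a replicate block, and each library left out; a length correction was added after the data were seen. The tests were tried on simulated counts. Some items, among them 1 promoter window, are not reported here.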

Additional observations from a re-analysis of the deposited data

Results flagged for a closer look

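The response to PTH differed between the lines for 3 genes of the WNT and PTH lists, by edgeR's test of the difference itself, and for 0 of the 9 tested receptors. *Daam1*, the formin described above, had a difference of -0.94 (SE 0.12, adjusted p = 0.000515), with a rise in WT cells and a log2 fold change of 0.11 (adjusted p = 0.500) in Y428F cells. *Id3*, an inhibitor of helix-loop-helix factors, had a difference of -3.38 (SE 0.13, adjusted p = 2.58e-12): WT libraries held 3.33 to 4.66 CPM with vehicle and 49.0 to 52.6 with PTH, and Y428F libraries 71.8 to 78.5 and 89.9 to 108. *Pde4d*, a cAMP phosphodiesterase, had a difference of -0.74 (SE 0.16, adjusted p = 0.0381), with 11.7 to 13.9 and 30.9 to 37.0 CPM in WT cells, and 6.06 to 7.39 and 9.21 to 10.8 CPM in Y428F cells, with vehicle and PTH. Groups of 3 libraries were not searched for outlying samples.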

How the results depend on the processing

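The number of receptors called was 2 for PTH in WT cells, 6 for the lines with vehicle and 0 for the difference in response under every alternative that was run, each library left out included. For PTH in Y428F cells it was 3, became 1 at an adjusted p under 0.01 and 4 with at least 10 counts in every library, was 3 with library totals alone (*Fzd4* in place of *Fzd7*), and ranged from 1 to 3 without each library in turn, with 1 without Y428F vehicle library 1, 2 or 3 or Y428F PTH library 2 or 3. For the lines with PTH it was 7 and ranged from 6 to 7. Calls over all genes for the difference in response were 73, and 216 without a filter, 123 by DESeq2 and 22 at the stricter limit. Without each library in turn they ranged from 24 to 89, with 24 without Y428F PTH library 3, 32, 31 and 38 without Y428F vehicle library 1, 2 or 3, 35 and 38 without WT PTH library 1 or 2, and 46 without WT vehicle library 3. Those for PTH in Y428F cells ranged from 1435, without Y428F vehicle library 1, to 2515. For the adjusted p under 0.01, all calls fell from 2375 to 1276 for PTH in WT cells and from 2192 to 1135 in Y428F cells.

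Same-numbered libraries had a mean residual correlation of 0.0019 over 18 pairs (-0.031 to 0.037). Libraries of different number had -0.00095 over 36 pairs (-0.044 to 0.066). The labels do not say whether same-numbered libraries shared a culture or preparation, and a mean over all genes cannot decide it. With a replicate block, 2, 3, 6, 7 and 0 receptors were called, with 2430, 2273, 7976, 8027 and 76 calls over all genes.

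Values near 0 that did not pass also changed sign. For PTH in WT cells, library totals gave -0.017 for *Fzd4*, -0.047 for *Fzd8* and -0.041 for *Lrp6*. *Fzd8* and *Lrp6* had -0.0078 and -0.0010 with upper-quartile factors, -0.0078 and -0.0012 with at least 10 counts in every library, and -0.014 and -0.012 with the length trend removed. Without each library in turn, PTH in WT cells gave -0.021 to 0.13 for *Fzd4*, -0.033 to 0.072 for *Fzd8* and -0.063 to 0.10 for *Lrp6*, PTH in Y428F cells gave -0.14 to 0.082 for *Fzd5* and -0.12 to 0.050 for *Lrp6*, the lines with vehicle gave -0.15 to 0.031 for *Lrp6*, and the difference in response gave -0.084 to 0.0097 for *Fzd2*, -0.091 to 0.13 for *Fzd5* and -0.15 to 0.032 for *Lrp6*. The cause was not tested. *Lrp5* rests on 20 to 38 counts per Y428F library.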
